A study of Homo sapiens with 24 samples.

Results

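The untreated baseline of PANC-1, a line derived from a human ductal carcinoma of the pancreas, was described by the histone marks on its coding genes. The cells received the control siRNA (siControl) and no TGFb, and were profiled by chromatin immunoprecipitation and sequencing (ChIP-seq) for H3K4me3, H3K27ac and H3K27me3. Each mark was measured in 2 libraries (replicates 1 and 2), so 6 peak lists of the 18 in the series make up this baseline. The other 12 lists come from the same line after siControl or siPHF13, the siRNA that depletes PHF13, followed by TGFb at 10 ng/ml for 48 h. All cells of the series were thus transfected, and the experiment has no untransfected cells. All are a single cell line, and the labels do not say whether the 2 replicates came from separate cultures, so their spread may be technical. A mark was counted as present at a gene when both replicates had a peak that covered at least 1 bp within 1 kb of a transcription start site of a coding transcript. This gave each of 19820 coding genes 1 of 8 states, from no mark to all 3 marks.

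Histone H3 carries these marks on lysines of its tail. H3K4me3 is laid down by SET1 and MLL complexes around the starts of active or inducible genes, and at CpG-rich promoters it is often present whether or not the gene is transcribed. H3K27ac is written by the acetyltransferases p300 and CBP and marks active promoters and enhancers. H3K27me3 is written by EZH2 within Polycomb repressive complex 2 and marks silenced developmental genes. Acetylation and methylation exclude each other on the same lysine of the same tail. Promoters that carry both H3K4me3 and H3K27me3 are called bivalent and were described at developmental regulators of stem cells. A peak list shows where a mark lies in a population of cells, so marks on the same chromosome and marks in different cells cannot be told apart, nor can a weaker mark and a mark in fewer cells.

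Most coding genes carried H3K4me3, fewer carried H3K27ac and fewest H3K27me3. H3K4me3 was present at 13964 genes (70.5%), H3K27ac at 9221 (46.5%) and H3K27me3 at 4112 (20.7%). The most frequent state was H3K4me3 with H3K27ac, at 8893 genes (44.9%). No mark was found at 4210 genes (21.2%), H3K4me3 only at 2574 (13.0%), and H3K4me3 with H3K27me3 at 2205 (11.1%). H3K27me3 only was found at 1610 genes (8.12%) and all 3 marks at 292 (1.47%). H3K27ac without H3K4me3 was rare, with 31 genes that had H3K27ac only (0.156%) and 5 that had H3K27ac with H3K27me3 (0.0252%). These shares over all coding genes are the background for every gene list below.

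**Figure D1:**
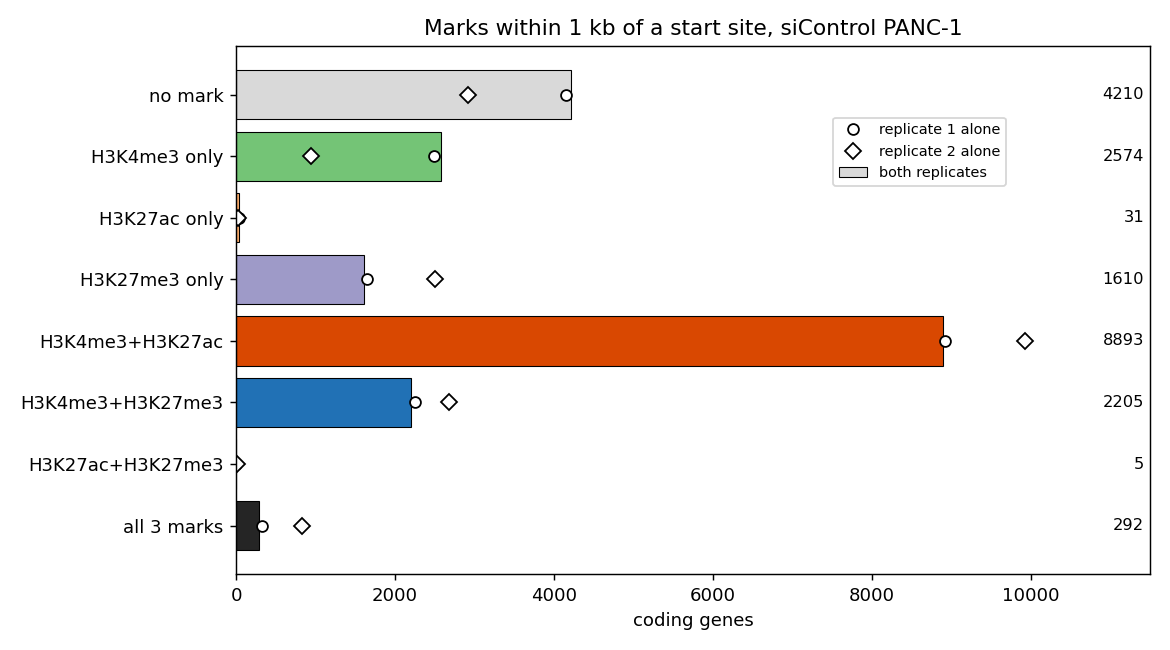
Number of coding genes in each of the 8 states (horizontal axis). Bars and the numbers at the right give the genes by peaks in both replicates, circles by replicate 1 alone and diamonds by replicate 2 alone. Circles lie close to the bars, while the diamonds lie well below the bar for H3K4me3 only (937 against 2574 genes) and above it for all 3 marks (824 against 292).

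The 2 replicates did not weigh equally in these states. Replicate 2 had more peaks for every mark, and nearly all genes marked in replicate 1 were marked in replicate 2 as well. H3K4me3 lists held 30770 and 35417 peaks (replicates 1 and 2) and reached 13980 and 14363 genes, of which 97.1% of the genes in either list were shared. H3K27ac lists held 19413 and 25929 peaks and reached 9283 and 10782 genes, with 85.0% shared. H3K27me3 lists held 98211 and 165717 peaks and reached 4229 and 6021 genes, with 67.0% shared. The replicates gave the same call for all 3 marks at 15966 genes (80.6%). This agreement was 96.9% in the state H3K4me3 with H3K27ac and 92.2% in H3K4me3 with H3K27me3, but 29.4% in H3K4me3 only. Of the 2574 genes with H3K4me3 only, 1366 (53.1%) had an H3K27ac peak in replicate 2 alone and 499 (19.4%) an H3K27me3 peak in replicate 2 alone. H3K4me3 only therefore holds mostly genes on which the replicates differed. Of the 4210 genes with no mark, 1165 (27.7%) had an H3K27me3 peak in replicate 2 alone, and 2861 (68.0%) had no peak in any of the 6 lists.

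Printed below are 7 start sites as examples of the states in sequence. They were picked as extremes, so they do not show what separates the states. Each run covers 250 bases before to 30 bases after a start site, read 5′ to 3′ on the strand of the gene from GRCh37 (hg19), with every CpG in capitals. CpG-rich promoters are the ones at which H3K4me3 is usually found. The genes were those with the most covered length in their state (or, for no mark, the gene farthest from any peak) that also have a RefSeq promoter entry. The start shown is the one with most of the marks of the state. PHGDH is shown with 2 starts because, by peaks in both replicates, its marks were divided between them. Its start with H3K4me3 and H3K27ac also had 547 bp of H3K27me3 in replicate 2 alone.
TGIF2LX, no mark, chrX:89176657-89176936, plus strand: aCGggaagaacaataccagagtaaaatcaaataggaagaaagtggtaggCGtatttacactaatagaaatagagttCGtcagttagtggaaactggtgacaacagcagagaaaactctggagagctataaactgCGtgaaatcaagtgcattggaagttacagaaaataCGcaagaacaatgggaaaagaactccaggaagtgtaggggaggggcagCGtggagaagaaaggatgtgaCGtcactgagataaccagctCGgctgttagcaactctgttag
SLCO2B1, H3K27me3 only, chr11:74861902-74862181, plus strand: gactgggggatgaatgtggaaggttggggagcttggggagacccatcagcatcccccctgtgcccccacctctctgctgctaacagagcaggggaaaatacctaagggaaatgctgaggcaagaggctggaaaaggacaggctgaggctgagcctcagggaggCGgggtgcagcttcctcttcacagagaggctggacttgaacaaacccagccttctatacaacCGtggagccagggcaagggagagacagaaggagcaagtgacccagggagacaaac
SEPTIN9, H3K4me3 with H3K27ac, chr17:75277331-75277610, plus strand: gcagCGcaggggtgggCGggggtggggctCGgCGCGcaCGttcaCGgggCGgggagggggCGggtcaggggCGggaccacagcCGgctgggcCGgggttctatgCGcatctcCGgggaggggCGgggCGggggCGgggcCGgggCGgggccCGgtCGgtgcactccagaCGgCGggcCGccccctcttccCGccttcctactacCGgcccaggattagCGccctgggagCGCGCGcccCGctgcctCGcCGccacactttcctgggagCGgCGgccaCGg
IQSEC1, H3K4me3 only, chr3:13035855-13036134, minus strand: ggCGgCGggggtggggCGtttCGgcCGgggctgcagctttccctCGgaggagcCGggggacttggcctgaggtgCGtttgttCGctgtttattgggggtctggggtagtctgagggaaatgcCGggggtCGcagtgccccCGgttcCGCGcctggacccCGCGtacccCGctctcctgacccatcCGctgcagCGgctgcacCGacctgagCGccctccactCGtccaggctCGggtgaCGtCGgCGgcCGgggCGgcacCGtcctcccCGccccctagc
RBFOX3, H3K4me3 with H3K27me3, chr17:77179525-77179804, minus strand: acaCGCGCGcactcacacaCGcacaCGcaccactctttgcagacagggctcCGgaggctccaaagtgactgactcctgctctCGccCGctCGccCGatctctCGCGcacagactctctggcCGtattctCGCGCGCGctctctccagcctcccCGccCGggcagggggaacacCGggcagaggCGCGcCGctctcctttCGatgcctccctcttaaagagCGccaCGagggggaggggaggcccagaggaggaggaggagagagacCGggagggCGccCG
PHGDH start with H3K4me3 and H3K27me3, chr1:120254307-120254586, plus strand: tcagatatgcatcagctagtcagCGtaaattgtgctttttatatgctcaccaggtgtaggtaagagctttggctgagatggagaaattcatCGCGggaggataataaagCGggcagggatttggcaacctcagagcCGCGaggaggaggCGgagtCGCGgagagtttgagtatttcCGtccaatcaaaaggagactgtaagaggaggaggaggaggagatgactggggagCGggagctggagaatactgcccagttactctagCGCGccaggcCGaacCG
PHGDH start with H3K4me3 and H3K27ac, chr1:120190784-120191063, plus strand: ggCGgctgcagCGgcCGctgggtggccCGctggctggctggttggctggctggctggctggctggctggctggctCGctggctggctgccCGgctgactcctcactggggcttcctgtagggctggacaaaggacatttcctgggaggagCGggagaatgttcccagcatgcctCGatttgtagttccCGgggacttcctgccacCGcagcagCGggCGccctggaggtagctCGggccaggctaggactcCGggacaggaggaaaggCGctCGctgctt

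Among the printed starts, both without H3K4me3 held the fewest CpG. The 280 bases at TGIF2LX held 8 CpG and those at SLCO2B1 held 2. TGIF2LX is also poor in G and C (43.2%), so that its ratio of observed over expected CpG was 0.68, against 0.088 at SLCO2B1. The window at SEPTIN9 held 36 CpG, that at IQSEC1 30 and that at RBFOX3 29. Both PHGDH windows lay between these, with 15 CpG at the start that carried H3K4me3 and H3K27me3 and 16 at the start that carried H3K4me3 and H3K27ac. Their ratios of observed over expected CpG were 0.85 and 0.50, the latter below that of TGIF2LX. HCFC1R1, an example of H3K27ac only that is not printed, held 25 CpG, more than either PHGDH start, with H3K4me3 in replicate 2 alone.

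Across all genes the states with H3K4me3 had CpG-rich promoters and the others did not. The observed over expected CpG ratio of the 300 bases around the canonical start (250 before and 50 after) had a median of 0.77 over all coding genes. It was 0.26 for genes with no mark and 0.29 for H3K27me3 only. It was 0.88 for H3K4me3 with H3K27ac, 0.81 for H3K4me3 only, 0.80 for H3K4me3 with H3K27me3 and 0.84 for all 3 marks. The middle ranges (25th to 75th percentile) of H3K4me3 with H3K27ac (0.77 to 0.98) and of no mark (0.14 to 0.46) did not meet. Bivalent genes and genes with H3K27me3 only thus both carried the Polycomb mark, yet their middle ranges of 0.65 to 0.90 and 0.16 to 0.52 did not meet either. Of the 13325 genes with a ratio of at least 0.6, 92.2% carried H3K4me3, against 14.1% of the 3752 genes below 0.3. H3K27me3 was found at 17.7% and 26.1% of the same genes. In the CpG-rich class it stood mostly beside H3K4me3, with 13.4% of genes in H3K4me3 with H3K27me3 and 2.48% in H3K27me3 only. In the CpG-poor class it stood mostly alone, with 3.33% and 22.3%. Genes are not independent replicates, so these are descriptions with no test.

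**Figure D2:**
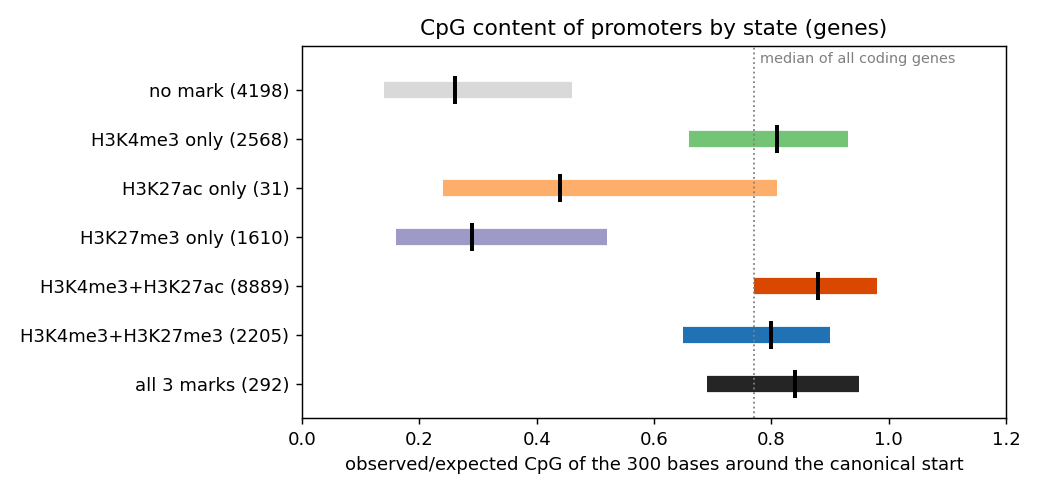
Observed over expected CpG of the 300 bases around the canonical start (horizontal axis) for the states with more than 5 genes, with the number of genes in parentheses. Coloured bars span the 25th to 75th percentile, black ticks are medians, and the dotted line is the median of all coding genes (0.77). The states with H3K4me3 lie to the right (medians 0.80 to 0.88), no mark and H3K27me3 only to the left (0.26 and 0.29).

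Promoter motifs followed the same division. The letters TATAAA, the core of the TATA box, were searched from 40 to 15 bases before the canonical start on the gene's strand and were found at 3.92% of all promoters. Their share was 8.10% for no mark and 9.94% for H3K27me3 only, against 1.59% for H3K4me3 with H3K27ac and 3.40% for H3K4me3 with H3K27me3. GGGCGG, the GC box bound by SP1, was searched on both strands of the 250 bases before the start and was found at 59.0% of all promoters. It was found at 23.9% of promoters with no mark and 28.1% with H3K27me3 only, and at 72.8% to 73.9% of those with H3K4me3 only, with H3K27ac or with H3K27me3. This motif holds a CpG, so its share is tied to the CpG ratio above. CCAAT, searched in the same way, differed less among the states with over 5 genes, from 27.9% in H3K4me3 with H3K27me3 to 35.6% in H3K4me3 with H3K27ac, with 34.3% over all promoters. A match to these letters is no measure of binding.

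The 3 marks were then compared with each other at genes. H3K27ac was almost never found without H3K4me3, since 99.6% of the genes with H3K27ac also had H3K4me3. Both marks were present at 9185 genes, 1.41 times the product of their shares. H3K27ac and H3K27me3 shared 297 genes, 0.155 times the product of their shares. H3K4me3 and H3K27me3 shared 2497 genes, 0.862 times the product, so that 60.7% of the genes with H3K27me3 were also marked by H3K4me3. Replicate by replicate these ratios were 1.41 and 1.38 for H3K4me3 with H3K27ac, 0.169 and 0.255 for H3K27ac with H3K27me3, and 0.863 and 0.803 for H3K4me3 with H3K27me3. Their order was the same in both replicates.

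Sharing a gene did not always mean sharing a start site. H3K4me3 and H3K27ac lay within 1 kb of the same start at 9164 of the 9185 genes (99.8%), and H3K4me3 and H3K27me3 at 2326 of 2497 (93.2%). H3K27ac and H3K27me3 met at a common start at 106 of 297 genes (35.7%). Of the 292 genes with all 3 marks, 101 (34.6%) had them at a common start by peaks in both replicates. In the others the marks were divided between starts by this rule, as at PHGDH. Genes with all 3 marks had a median of 6 start sites against 3 over all coding genes, and a median length of 70.8 kb against 27 kb. More starts are more places to meet a mark, and all 3 marks were present at 0.202% of the 4946 genes with 1 start and at 3.08% of the 5975 genes with 5 or more. Counted in bases, 69.1% and 74.8% of the length under H3K27ac peaks lay under H3K4me3 peaks of the same replicate. Their shared length was 72.9 and 62.8 times the product of their shares of the genome. For H3K27ac under H3K27me3 the share was 2.97% and 2.89%, where H3K27me3 covered 3.39% and 9.46% of the genome, and the ratio to the product was 0.875 and 0.305. In replicate 1 this overlap was thus near the product of shares. For H3K4me3 and H3K27me3 the shared length was 2.34 and 1.36 times the product. Counted in bases this pair thus lay above the product, while counted in genes it lay below it (0.862).

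Around the canonical start, the 3 marks had different shapes. H3K4me3 and H3K27ac rose on both sides of the start, higher inside the gene than before it. Over all coding genes, H3K4me3 peaks covered 47.9% and 54.8% 300 bases before the start (replicates 1 and 2), 51.2% and 60.4% at the start base, and 61.1% and 66.1% 300 bases after it. H3K27ac peaks covered 20.2% and 29.0% before, 20.1% and 29.3% at, and 30.1% and 43.0% after the start, with a minimum of 16.8% and 23% 100 bases before it. Both marks were nearly absent 5 kb inside the gene, where H3K4me3 covered 0.974% and 1.28% of genes. H3K27me3 varied less with distance, from 6.45% and 16.6% of genes 10 kb before the start to 11% and 19.4% at its highest, 800 and 900 bases inside the gene, and 4.57% and 11.8% 10 kb inside it.

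**Figure D3:**
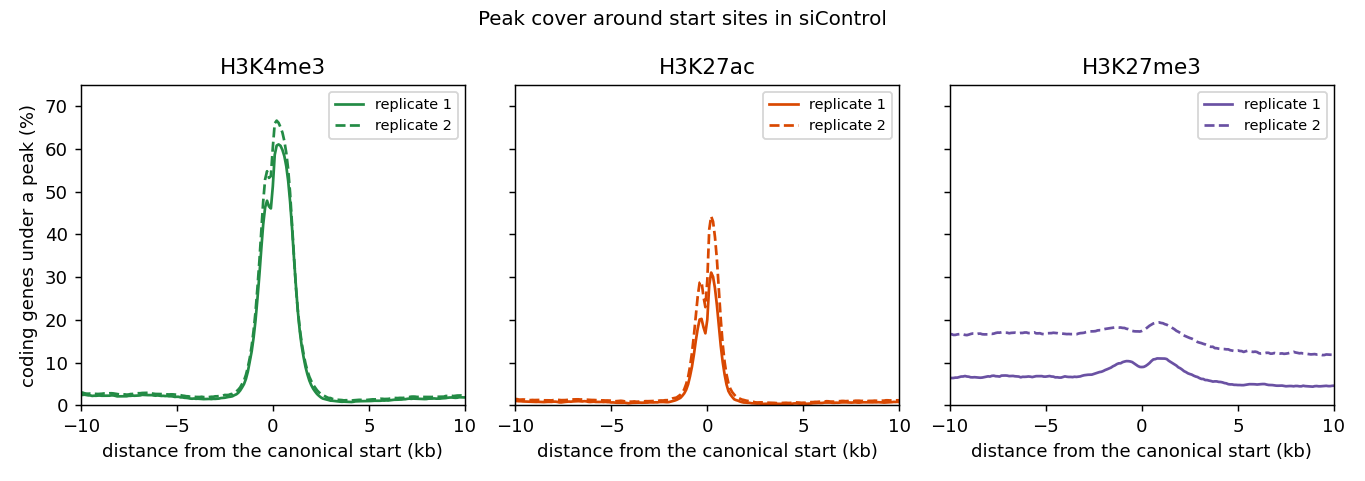
Percent of the 19820 coding genes under a peak (vertical axis) against the distance from the canonical start in kb (horizontal axis, negative upstream), 1 panel per mark. Solid lines are replicate 1 and dashed lines replicate 2. H3K4me3 rises to 61.1% and 66.6% and H3K27ac to 31.1% and 44.2% within 300 bases after the start, and H3K27me3 stays below 20% throughout.

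On their width and place, the marks could be compared over libraries. H3K4me3 peaks had a median width of 807 and 913 bp, H3K27ac peaks 430 and 524 bp, and H3K27me3 peaks 625 and 791 bp (replicates 1 and 2). H3K27ac peaks were narrower than H3K4me3 peaks, with a difference of -0.85 on the log2 scale (mean 8.89 ± 0.20 against 9.75 ± 0.13, SD, n = 2), and the replicates did not overlap (exact two-sided permutation test, p = 0.333, adjusted over 3 pairs of marks p = 0.333). This is the smallest p that 2 libraries against 2 can give. H3K27me3 lay between them, with differences of 0.57 from H3K27ac and -0.29 from H3K4me3 on the log2 scale (both exact permutation p = 0.333), but was called in the broad mode of the peak caller, so mark and caller mode cannot be told apart. H3K27me3 also held the widest peaks, of 100077 and 183476 bp. Of H3K4me3 peaks 58.0% and 46.8% lay within 1 kb of a coding start, of H3K27ac peaks 57.9% and 51.3%, and of H3K27me3 peaks 6.12% and 5.20%. The difference was -46.7 percentage points for H3K27me3 minus H3K4me3 and -48.9 for H3K27me3 minus H3K27ac, with no overlap of replicates (both exact permutation p = 0.333, adjusted p = 0.5). H3K4me3 and H3K27ac differed by 2.23 points (52.4% ± 7.92 against 54.6% ± 4.64, SD, n = 2), less than the spread between replicates (exact permutation p = 1.00).

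H3K4me3 with H3K27ac was the state of the largest number of genes. At its 8893 genes H3K4me3 peaks covered a median of 1714 and 1800 bp and H3K27ac peaks 813 and 1108 bp within 1 kb of the starts (replicates 1 and 2). The strongest H3K4me3 peak of a gene had a median fold enrichment over input of 5.63 and 6.51, and the strongest H3K27ac peak 5.61 and 6.92. H3K27me3 peaks were seen at 0.315% and 2.74% of these genes in single replicates. The genes with the longest cover were SEPTIN9, a cytoskeletal septin (chromosome 17, 75276651 to 75496678), DST, a linker of the cytoskeleton to junctions (chromosome 6, 56322785 to 56819628), and VGLL4, a cofactor of TEAD transcription factors (chromosome 3, 11597543 to 11812824). Within 5 kb of its 28 starts, SEPTIN9 had 8682 and 11563 bp under H3K4me3 and 5548 and 8954 bp under H3K27ac. DST, with 20 starts, had 10583 and 12202 bp under H3K4me3 and 4357 and 7522 bp under H3K27ac. Covered length sums over starts, so genes with many starts rank high. Runs of neighbours in this state reached 17 genes, such as that from VPS37B to GTF2H3 on chromosome 12 (123349877 to 124147151).

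Housekeeping and proliferation genes fell almost entirely in this state. All 20 housekeeping genes listed carried H3K4me3 and H3K27ac and none H3K27me3, against 44.9% of all coding genes in that state. Of 24 cell cycle genes 23 were in it. CDK1, the mitotic cyclin-dependent kinase, had 1887 and 2380 bp of H3K4me3 and 743 and 1219 bp of H3K27ac within 1 kb of its starts, and CDK2, the kinase of S phase entry, 1627 and 1603 bp and 303 and 569 bp. The exception was CDK4, the cyclin D kinase, which had 1032 and 2001 bp of H3K27me3 as well. Of 81 ribosomal protein genes 76 were in the state, and both that carried no mark, RPL3L and RPL10L, are tissue-restricted paralogs of general ribosomal protein genes (named after their values were seen).

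The enzymes that write and erase these marks were themselves mostly in the active state. Of 20 genes for Polycomb subunits and H3K27 enzymes, 14 carried H3K4me3 and H3K27ac without H3K27me3, the state of 44.9% of all coding genes. EZH2, the H3K27 methyltransferase, had 2720 and 2568 bp of H3K4me3 and 1353 and 1470 bp of H3K27ac, and EZH1, its paralog, 1507 and 1486 bp and 663 and 642 bp. JARID2, an accessory subunit of Polycomb repressive complex 2, had all 3 marks, with 347 and 173 bp of H3K27me3. RNF2, the catalytic subunit of Polycomb repressive complex 1, had H3K4me3 only, with H3K27ac of 928 bp in replicate 2 and 0 bp in replicate 1. Of the 20, 4 carried H3K27me3 (20.0%, against 20.7% of all coding genes): JARID2, BMI1, CBX2 and CBX8, the last 3 of which are subunits of Polycomb repressive complex 1. Of 18 genes for H3K4 methylation enzymes and readers, 16 had H3K4me3 and H3K27ac, 2 had H3K4me3 only and none had H3K27me3. Among all coding genes the shares were 44.9%, 13.0% and 20.7%. The methyltransferases KMT2A and KMT2B had 1599 to 1933 bp of H3K4me3 and 1132 to 1803 bp of H3K27ac in the 2 replicates. SETD1B, another H3K4 methyltransferase, and TAF3, the TFIID subunit that binds H3K4me3, had H3K4me3 with 0 bp of H3K27ac in both replicates, although SETD1B had 1961 and 2128 bp of H3K27ac within 5 kb. PHF13, the H3K4me3 reader that the study depletes, had 1525 and 1636 bp of H3K4me3 and 882 and 1500 bp of H3K27ac in these control cells.

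Bivalent genes, with H3K4me3 and H3K27me3 but not H3K27ac, numbered 2205. Their H3K4me3 cover was narrower than that of the active state, with a median of 1176 and 1346 bp within 1 kb of the starts, and the strongest peak had a median fold of 6.10 and 8.40. H3K27me3 covered 1552 and 2060 bp in the same windows. Around the canonical start H3K27me3 dipped where H3K4me3 was highest. H3K27me3 peaks covered 56.8% and 77.8% of these genes 1 kb before the start, 47.5% and 71.3% at the start base and 64.6% and 83.1% 1 kb after it, while H3K4me3 was highest 100 bases after the start (74.1% and 86.8%). At genes with H3K27me3 only there was no dip of this size, with 38.6% and 68.5% before, 41.6% and 76.5% at, and 41.1% and 73.7% after the start. H3K27me3 peaks covered a median of 21.5% and 62.1% of the gene body in the latter against 9.23% and 30.9% in bivalent genes, whose median length was 55.2 kb against 14.5 kb. Covered length within 5 kb of the starts was close, with medians of 3207 and 7878 bp against 3930 and 7806 bp. The state rule uses the windows within 1 kb, so the heights there follow from it in part.

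**Figure D4:**
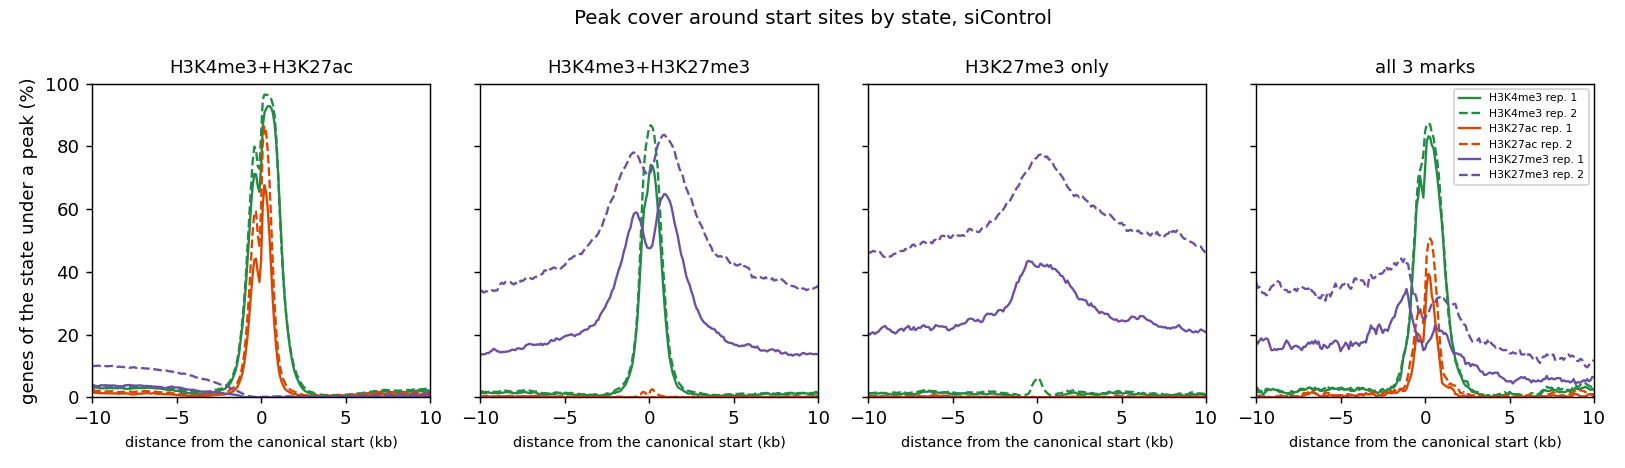
Percent of the genes of a state under a peak (vertical axis) against the distance from the canonical start in kb (horizontal axis) for H3K4me3 (green), H3K27ac (orange) and H3K27me3 (purple), with replicate 1 solid and replicate 2 dashed. In H3K4me3+H3K27me3 the purple lines dip at the start, to 47.5% and 71.3%, where the green lines peak. In H3K27me3 only they are broad, with a shallow dip in replicate 1 (43.2% at 300 bases before the start, 41.6% at it and 42.3% at 300 bases after it), and in all 3 marks H3K27me3 is highest upstream (34.6% and 44.2% at 1100 and 1500 bases before the start).

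The bivalent genes with the longest cover were GRAMD1B, a sterol transporter (chromosome 11, 123229136 to 123498482), RBFOX3, the neuronal splicing factor known as NeuN (chromosome 17, 77085427 to 77512230), and KALRN, a guanine nucleotide exchange factor of neurons (chromosome 3, 123752216 to 124445172). GRAMD1B had 60417 and 93328 bp under H3K27me3 and 1394 and 2896 bp under H3K4me3 within 5 kb of its 13 starts. RBFOX3 had 42688 and 70040 bp of H3K27me3 and 443 and 764 bp of H3K4me3, the latter at the CpG-rich start printed above. KALRN had 45091 and 60876 bp of H3K27me3 and 2720 and 2877 bp of H3K4me3. The choice by covered length favours long H3K27me3, and over the whole state the medians within 5 kb were 3930 and 7806 bp of H3K27me3 beside 1289 and 1450 bp of H3K4me3.

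Pancreatic transcription factors were the list with the largest share of H3K27me3. Of 32, 20 carried it (62.5%, against 20.7% of all coding genes), 24 carried H3K4me3 and 5 carried H3K27ac (15.6%, against 46.5%). Bivalent was their most frequent state, with 13 of 32. GATA6, a factor of pancreatic progenitors, had 1448 and 2312 bp of H3K4me3, 1617 and 2720 bp of H3K27me3 and 0 bp of H3K27ac in both replicates. ONECUT1, which acts upstream of endocrine differentiation, had 1188 and 1560 bp of H3K4me3 and 334 and 1035 bp of H3K27me3. PDX1, the master factor of the pancreatic bud, had H3K4me3 only (905 and 1007 bp) with no other peak in either replicate. PTF1A, the acinar master factor, had H3K27me3 only (777 and 3050 bp). The 5 with H3K27ac were SOX9, a duct and progenitor factor, FOXA2, FOXA3, HNF4G and HHEX (named after their values were seen). SOX9 had 1615 and 1687 bp of H3K4me3 and 851 and 927 bp of H3K27ac, with no H3K27me3.

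The genes for the products of differentiated pancreatic cells carried no H3K27ac within 1 kb of their starts. None of 20 acinar enzyme genes and none of 18 endocrine genes had it there, against 46.5% of all coding genes. Within 5 kb, H3K27ac covered 1403 and 1384 bp at CELA3A and 782 and 1674 bp at CELA3B, both in the acinar list. Of the acinar genes 14 had no mark (7 by replicate 2 alone), 4 had H3K27me3 only and 2 were bivalent. These states held 21.2%, 8.12% and 11.1% of all coding genes. The carboxypeptidase gene CPA1 had no mark by the rule, with 171 bp of H3K27me3 in replicate 2 alone and 0 bp in the other lists. PRSS1, cationic trypsinogen, had 2151 and 3198 bp of H3K27me3 only, and PRSS3, mesotrypsinogen, had H3K4me3 (963 and 1290 bp) beside 4144 and 4144 bp of H3K27me3. Endocrine genes differed from the acinar genes in their most frequent state, since 9 of 18 had H3K27me3 only. INS, which encodes insulin, had 696 and 2251 bp of H3K27me3 and SST, which encodes somatostatin, 2001 and 2001 bp. GCG and PPY, which encode glucagon and pancreatic polypeptide, had no mark by the rule, with 300 bp of H3K27me3 at GCG in replicate 2 alone. The median CpG ratio was 0.18 for the acinar and 0.62 for the endocrine list.

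**Figure D5:**
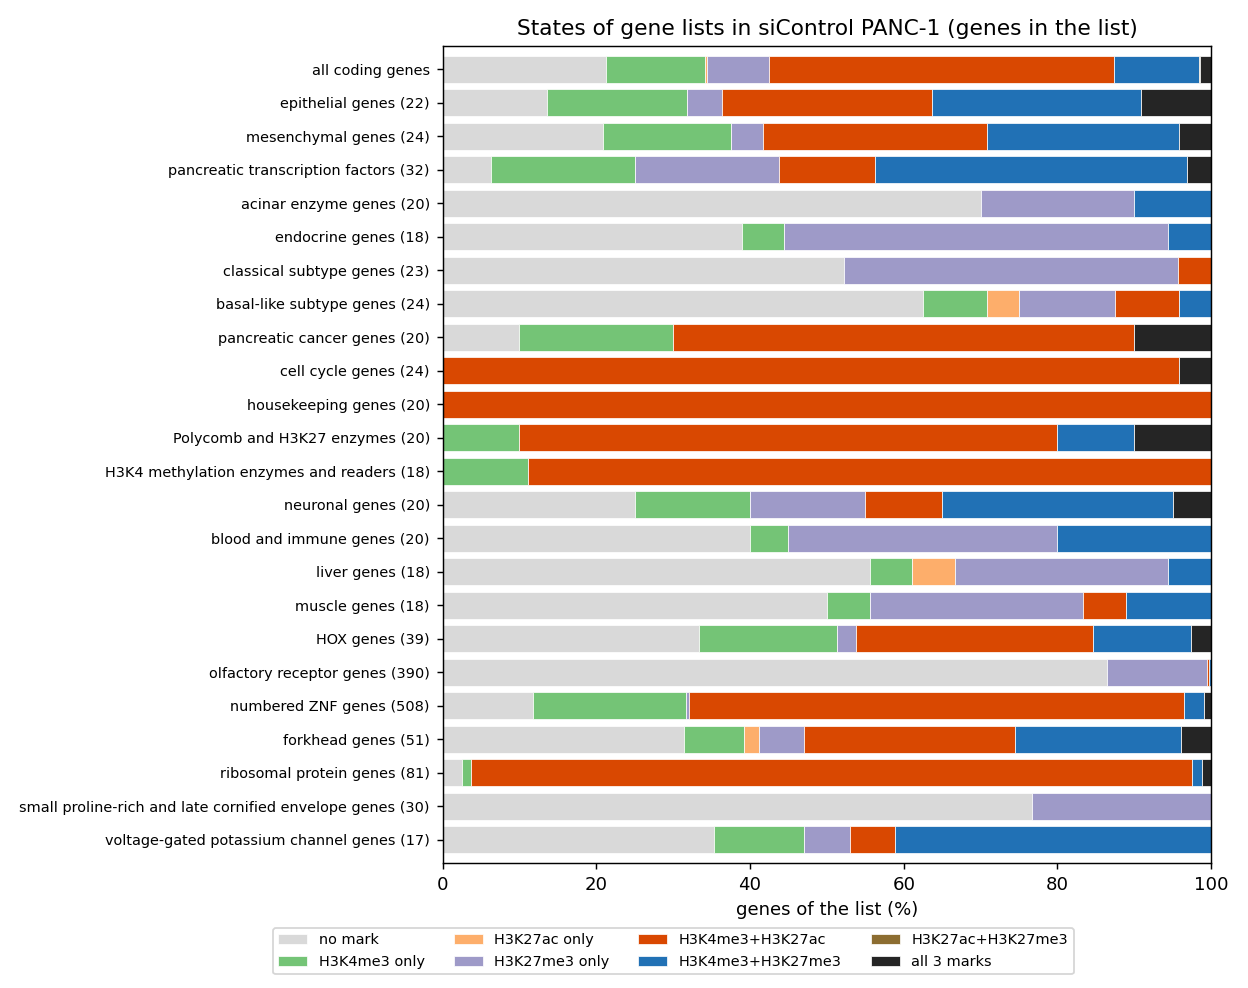
Percent of the genes of each list in each of the 8 states (horizontal axis, colours as in the legend), with the number of coding genes of the list in parentheses and all coding genes in the top bar. Housekeeping, cell cycle and ribosomal protein genes are almost wholly in H3K4me3+H3K27ac. Acinar, olfactory receptor and cornified envelope genes are mostly unmarked, and pancreatic transcription factors hold the widest bar of H3K4me3+H3K27me3 but for the potassium channel genes.

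The label of the cells was set beside epithelial markers. Of 6 epithelial markers 3 had both H3K4me3 and H3K27ac: KRT8, KRT18 and EPCAM. Both marks were present at 9185 of the 19820 coding genes, so 3 of 6 lay near the share of genes at large. KRT8 and KRT18, the keratin pair of simple epithelia, had 4191 and 5113 bp and 1020 and 1427 bp of H3K4me3, and 3009 and 3566 bp and 1023 and 957 bp of H3K27ac. EPCAM, the epithelial adhesion molecule, had all 3 marks, with 422 and 903 bp of H3K27ac and 72 and 650 bp of H3K27me3. KRT19, a keratin of ducts, had H3K4me3 in both replicates and H3K27ac within 1 kb in replicate 2 alone (849 bp). Within 5 kb it had 1036 and 2278 bp of H3K27ac. CDH1, which encodes E-cadherin, was bivalent, with 1146 and 1314 bp of H3K4me3, 773 and 834 bp of H3K27me3 and 0 bp of H3K27ac. KRT7, another keratin of ducts, had 0 bp of every mark within 1 kb in all 6 lists. Of 18 markers of acinar, endocrine, blood, liver, muscle, neuronal and endothelial cells, 1 had H3K4me3 and H3K27ac, SYT1, the synaptic vesicle protein synaptotagmin, which had all 3 marks. PECAM1, a further endothelial marker, was not in the annotation used. Within 1 kb of their starts KRT8 and KRT18 thus carried H3K4me3 and H3K27ac in both replicates without H3K27me3, and the other 4 markers did not.

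Epithelial and mesenchymal genes, whose balance changes in epithelial-to-mesenchymal transition, gave close counts before TGFb. Of 22 epithelial genes 18 carried H3K4me3 (81.8%), 8 H3K27ac (36.4%) and 9 H3K27me3 (40.9%). Of 24 mesenchymal genes 18 carried H3K4me3 (75%), 8 H3K27ac (33.3%) and 8 H3K27me3 (33.3%). Over all coding genes the shares were 70.5%, 46.5% and 20.7%. Both lists thus lay below all coding genes for H3K27ac and above them for H3K27me3. Each list held 6 bivalent genes. Among mesenchymal genes, VIM, which encodes vimentin, had 1330 and 1583 bp of H3K27ac and 137 and 720 bp of H3K4me3, and ZEB1, a repressor of CDH1, had 2863 and 2805 bp of H3K4me3 and 1378 and 1807 bp of H3K27ac. CDH2, which encodes N-cadherin, had H3K4me3 in both replicates and 354 bp of H3K27ac in replicate 2 alone. FN1, which encodes fibronectin, was bivalent, with 1820 and 1543 bp of H3K4me3 and 2007 and 2243 bp of H3K27me3. Active and bivalent members stood in both lists, so neither list carried a single state.

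Genes that separate the molecular subtypes of pancreatic cancer were mostly without H3K4me3. Of 23 genes of the classical subtype 1 carried H3K4me3 (4.35%), 10 carried H3K27me3 only and 12 had no mark (6 by replicate 2 alone). FAM3D and AGR3 had no mark by the rule (FAM3D had 1637 bp of H3K27me3 in replicate 2 alone), while BTNL8 (435 and 1984 bp) and LYZ, which encodes lysozyme (1192 and 295 bp), had H3K27me3 only. The exception was AGR2, a disulfide isomerase of mucus-producing cells, with 1442 and 1440 bp of H3K4me3 and 869 and 1013 bp of H3K27ac (named after its values were seen). Of 24 genes of the basal-like subtype 5 carried H3K4me3 (20.8%), 4 carried H3K27me3 (16.7%) and 15 had no mark. LY6D and SPRR3, genes of squamous epithelium, had no mark by the rule (LY6D had 525 bp of H3K27me3 in replicate 2 alone), while VGLL1 had H3K27me3 only (1674 and 2978 bp). S100A2, a calcium-binding protein, had 2606 and 2853 bp of H3K27ac beside 374 and 415 bp of H3K4me3. H3K27me3 was thus present at 10 of 23 classical genes (43.5%) and 4 of 24 basal-like genes, beside 20.7% of all coding genes. H3K4me3 was present at 70.5% of all coding genes and 21.2% had no mark.

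Of 20 genes altered in pancreatic cancer, 18 carried H3K4me3 (90.0%), 14 H3K27ac (70.0%) and 2 H3K27me3 (10.0%). Over all coding genes the shares were 70.5%, 46.5% and 20.7%. MTAP, an enzyme of methionine salvage, had both active marks, with 1860 and 2631 bp of H3K4me3 and 639 and 1701 bp of H3K27ac. Both genes with no mark were CDKN2A, which encodes p16 and p14ARF, and its neighbour CDKN2B. No peak of any mark lay from base 21812736 to 22406305 of chromosome 9 in the 6 siControl lists, a stretch of 594 kb that holds these genes and no other complete coding gene. MTAP runs from base 21802635 to 21937650, so most of its body lies in this stretch and its marks lie before it. In all 18 lists together the stretch was 573 kb. PANC-1 is known to lack CDKN2A. A locus without a mark and a locus that is absent cannot be told apart in a list of peaks.

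H3K27me3 only was the state of 1610 genes with CpG-poor promoters, which lay next to each other more often than their share of genes. The next gene along the chromosome had the same state in 29.0% of cases, against 8.12% of all coding genes. Every other state also recurred above its share, such as no mark (42.3% against 21.2%) and bivalent (18.2% against 11.1%). The longest runs were a keratin cluster on chromosome 12 (52880960 to 53171129) with 10 genes from KRT6A to KRT76, a stretch of 9 genes on chromosome 19 (55249978 to 55512510) that holds killer-cell immunoglobulin-like receptors, and 8 genes on chromosome 1 (153232163 to 153433127) that hold S100A8 and S100A9, alarmins of myeloid cells. TRIM29, expressed in basal epithelium (chromosome 11, 119981994 to 120056237), had the longest cover, with 24960 and 37655 bp of H3K27me3 within 5 kb of its 10 starts and 0 bp of the other marks. SLCO2B1, an organic anion transporter (chromosome 11, 74811608 to 74917594), had 18451 and 31155 bp, and its canonical start is the CpG-poor one printed above. PHACTR3, a regulator of protein phosphatase 1 (chromosome 20, 58152564 to 58422766), had 10310 and 42082 bp, and 865 bp of H3K4me3 in replicate 2 alone. Neighbours can share a peak, so such runs are not independent calls.

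H3K27ac was found at 0 to 3 genes in each list of another cell lineage. For all coding genes, H3K4me3 was present at 70.5%, H3K27ac at 46.5% and H3K27me3 at 20.7%, while 21.2% had no mark and 11.1% were bivalent. Of 20 blood and immune genes 11 carried H3K27me3 (55.0%), none H3K27ac and 8 had no mark (5 by replicate 2 alone). PTPRC, which encodes CD45, and CD4 had no peak within 1 kb in any of the 6 lists, while the T cell receptor subunits CD3E and CD3D had H3K27me3 only (1426 and 1831 bp, 914 and 2075 bp). Of 20 neuronal genes 10 carried H3K27me3 (50%), 12 H3K4me3 and 3 H3K27ac, with bivalent as the most frequent state (6). SNAP25, a synaptic fusion protein, had 1655 and 1715 bp of H3K4me3 and 40 and 410 bp of H3K27me3, and STMN2, a neuronal microtubule regulator, 460 and 471 bp and 1557 and 2619 bp. SYT1 had all 3 marks and SYP, which encodes synaptophysin, H3K4me3 only. Of 18 liver genes 10 had no mark (6 by replicate 2 alone), ALB and APOA1 among them, and 6 carried H3K27me3, such as APOB (494 and 1460 bp) and CYP3A4 (1441 and 2065 bp). Of 18 muscle genes 9 had no mark (4 by replicate 2 alone), among them the myogenic factors MYF5 and MYF6, and 7 carried H3K27me3, among them MYOD1 (204 and 2001 bp) and MYOG (294 and 1811 bp). Of 17 voltage-gated potassium channel genes 7 were bivalent (KCNA1 had 1878 and 3548 bp of H3K27me3 and 556 and 862 bp of H3K4me3) and 6 had no mark.

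The state without marks held most olfactory receptor and cornified envelope genes. Of 390 olfactory receptor genes 337 had no mark and 51 H3K27me3 only, the states of 21.2% and 8.12% of all coding genes. On these chromosomes the longest run without a mark, of 47 genes on chromosome 1 (247670360 to 248903150), was largely made of them. Of 30 small proline-rich and late cornified envelope genes 23 had no mark (8 by replicate 2 alone) and 7 H3K27me3 only. Among the autosomes and chromosome X, to which the choice of examples was limited, the 3 genes farthest from any peak lay on chromosome X. TGIF2LX, a testis homeobox gene (89176907 to 89177882), lay 1308643 bp from the nearest siControl peak, and CXorf51B (145891289 to 145891929) and CXorf51A (145895624 to 145896262) lay 847322 and 842349 bp from it. Numbered ZNF genes, which encode zinc finger proteins and also lie in clusters, stood at the other end: 446 of 508 carried H3K4me3 (87.8%), 332 H3K27ac (65.4%) and 20 H3K27me3 (3.94%). The marks were present at 70.5%, 46.5% and 20.7% of all coding genes.

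HOX genes, the positional regulators of the body axis that Polycomb silences in many tissues, were divided by cluster. Of 39 HOX genes 12 had H3K4me3 and H3K27ac, 13 no mark (7 by replicate 2 alone), 7 H3K4me3 only, 5 were bivalent, 1 had H3K27me3 only and 1 had all 3 marks. In the HOXB cluster (chromosome 17, 46605888 to 46806112) 6 of 10 genes were in the active state, and in HOXC (chromosome 12, 54332615 to 54449814) 5 of 9. No HOXB or HOXC gene carried H3K27me3 by the rule, against 20.7% of all coding genes. Within 1 kb, HOXB1 (231 bp) and HOXB13 (138 bp) had it in replicate 2 alone. Within 5 kb, HOXB13 had 2479 and 4846 bp of H3K27me3. In HOXD (chromosome 2, 176957449 to 177055635) none of 9 genes had H3K27ac, HOXD1, HOXD3 and HOXD11 were bivalent and 5 had no mark. In HOXA (chromosome 7, 27132612 to 27239710) HOXA3 had all 3 marks, HOXA11 and HOXA13 were bivalent and 4 of 11 genes had no mark. Of 51 forkhead genes, another family of developmental factors, 16 had no mark (FOXB2 and FOXD4 among them), 14 were active and 11 bivalent. These states held 21.2%, 44.9% and 11.1% of all coding genes. FOXA1, an endoderm pioneer factor, had H3K4me3 only by the rule (1595 and 1812 bp, with 625 bp of H3K27me3 in replicate 2 alone), and FOXA2, its paralog, had 204 and 457 bp of H3K27ac beside 740 and 1328 bp of H3K4me3.

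The genes with all 3 marks and those with H3K27ac but no H3K4me3 were few. PHGDH, the entry enzyme of serine synthesis (chromosome 1, 120191034 to 120286841), had the longest cover with all 3 marks, with 15814 and 24989 bp of H3K27me3, 3755 and 3851 bp of H3K4me3 and 333 and 809 bp of H3K27ac within 5 kb of its 9 starts. CRYM, a thyroid hormone binding protein (chromosome 16, 21250195 to 21314404), had 14172 and 24351 bp of H3K27me3 and 850 and 1560 bp of H3K27ac, and ADGRV1, an adhesion receptor of the inner ear (chromosome 5, 89825161 to 90460254), 11939 and 27398 bp and 472 and 995 bp. At all 3 genes the marks were not at a common start by peaks in both replicates. Of the 31 genes with H3K27ac only, 21 (67.7%) had an H3K4me3 peak in replicate 2 alone. HCFC1R1 and THOC6, which lie head to head on chromosome 16 (3072626 to 3077756), and IRF2BP2, a transcriptional corepressor (chromosome 1, 234740015 to 234745924), were such genes, with H3K4me3 of 627, 627 and 267 bp within 1 kb of their starts in replicate 2 and 0 bp in replicate 1. Within 5 kb both replicates had H3K4me3, with 1815 and 2914 bp at HCFC1R1 and at THOC6 and 2398 and 4167 bp at IRF2BP2. The 5 genes with H3K27ac and H3K27me3 were CD22, MUC2, MUC6, IGLON5 and USP17L24 (the last 2 named after their values were seen). MUC2 and MUC6, gel-forming mucins that are neighbours on chromosome 11 (1012823 to 1104416), had 609 and 598 bp and 529 and 254 bp of H3K27ac, and 730 and 1445 bp and 1488 and 2501 bp of H3K27me3. Of the H3K4me3 only state, IQSEC1, an ARF exchange factor (chromosome 3, 12938542 to 13324781), had 4976 and 5677 bp of H3K4me3 within 5 kb of its starts, with 373 bp of H3K27ac within 1 kb in replicate 2 alone, and PAX2, a kidney and duct factor (chromosome 10, 102495153 to 102589701), 3212 and 5922 bp. H3K27ac lay near by at PAX2 (223 and 2141 bp within 5 kb), but not within 1 kb of its starts.

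The baseline was last set beside siControl cells given TGFb. The identifiers of peaks point to an exchange of siControl+TGFb with siPHF13+TGFb relative to the labels, and the labels were followed, with the values of the exchange beside them. Per library, H3K4me3 peaks reached 70.5% and 72.5% of coding genes in siControl and 72.8% and 72.1% in siControl+TGFb, a difference of 0.918 percentage points (71.5% ± 1.37 against 72.4% ± 0.503, SD, n = 2, exact two-sided permutation p = 0.667, adjusted over 3 marks p = 1.00). H3K27ac peaks reached 46.8% and 54.4% against 59.5% and 54.2%, a difference of 6.23 points (50.6% ± 5.35 against 56.8% ± 3.68, exact permutation p = 0.667). H3K27me3 peaks reached 21.3% and 30.4% against 25.9% and 25.5%, a difference of -0.161 points (25.9% ± 6.39 against 25.7% ± 0.257, exact permutation p = 1.00). The groups overlapped for each mark, and the siControl replicates differed from each other by more than the group means did for H3K4me3, H3K27ac and H3K27me3. In siControl+TGFb, 98.3% of the 8893 genes with H3K4me3 and H3K27ac kept that state, 87.6% of the 2205 bivalent genes and 86.5% of the 4210 genes with no mark. Of the 2574 genes with H3K4me3 only, 38.8% kept it and 1328 had H3K4me3 and H3K27ac. At those 2574 genes H3K27ac peaks were present in 1.94% and 53.1% (replicates 1 and 2) in siControl and in 77.4% and 54% in siControl+TGFb. The rule for this state requires that at least 1 siControl replicate lack H3K27ac, so its siControl values follow from the rule. With the groups exchanged, the lists labelled siPHF13+TGFb kept the state at 41.8% of the genes with H3K4me3 and H3K27ac, 73.5% of the bivalent genes, 96.9% of the genes with no mark and 92.8% of the genes with H3K4me3 only. Their H3K27ac list of replicate 1 held 6004 peaks, and H3K27ac reached 19.5% and 58.5% of coding genes, a difference from siControl of -11.6 points (exact permutation p = 1.00). The difference was -0.701 points for H3K4me3 and -5.67 for H3K27me3 (both exact permutation p = 0.667). In the lists labelled siPHF13+TGFb, H3K27ac was present at 41.9% of the 8893 genes in replicate 1 and at nearly all in replicate 2. At the 2574 genes with H3K4me3 only it was present in 1.59% and 73.9%, and at the bivalent genes H3K27me3 in 77.9% and 97.0%. A mark counts only when both replicates have it, so these kept shares followed mainly replicate 1. The kept shares differed between the labels as given and exchanged, but whether the labels or replicate 1 accounts for this was not tested.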

How the data were processed

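The authors aligned ChIP-seq reads of PANC-1 to hg19 with Bowtie2 2.4.1 and called peaks with MACS2 2.2.7.1 against input in each library, narrow for H3K4me3 and H3K27ac and broad for H3K27me3. Each deposited peak has a score, its fold over input (a ratio), and the −log10 of its p-value and q-value. The lowest −log10 q of narrow peaks was 1.30, below the threshold that the methods state, so a minimum of 3 was an alternative. The lists hold no read counts, so depth is unknown, and a deeper library yields more peaks.

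Start sites were those of protein-coding transcripts of GENCODE 44 on GRCh37, whose chromosomes are those of hg19 (0 peaks ended past a chromosome). Genes without a coding transcript (342) were left out. Covered bp were counted with NumPy 2.4.6 in Python 3.11.15 and tested on simulated intervals. Libraries were compared by exact two-sided permutation tests with Benjamini-Hochberg adjustment. The members and gene lists were chosen with earlier results of these data known. Examples are the first members of a list in its most frequent state and the first outside it, the 3 genes with most covered bp within 5 kb per marked state, and the 3 farthest from a peak without marks. The 6 inputs were not analysed here. Alternatives were the window, the start sites, the peak threshold, the list length, the bp covered and each replicate alone. Some genes that this rule names are not reported here.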

Additional observations from a re-analysis of the deposited data

How the results depend on the processing

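The 2 replicates shared numbers in the labels, and with a replicate block (the paired sign permutation of 2 pairs, smallest p = 0.5) no difference passed the threshold either, with exact p = 0.5 for the lower share of H3K27me3 than of H3K4me3 peaks near starts and p = 1.00 for H3K27ac against H3K4me3. Most state counts were within 1.5 times of those reported (61 were and 19 were not), and the exceptions follow. The cause was not tested. With a window of 5 kb, H3K27me3 was present at 6281 genes, 1202 had all 3 marks and 13 had H3K27ac+H3K27me3. With 500 bp, 52 had H3K27ac only, 1 H3K27ac+H3K27me3 and 191 all 3 marks. With 1 start site per gene, 3 had H3K27ac+H3K27me3 and 78 all 3 marks, and with marks at the same start site 101 had all 3. With the 50% strongest peaks, 4762 had H3K4me3 only, 258 H3K27ac only, 5847 H3K4me3+H3K27ac, 1086 H3K4me3+H3K27me3, 2 H3K27ac+H3K27me3 and 103 all 3. With at least 200 bp covered, 3 had H3K27ac+H3K27me3. Without a replicate, H3K4me3 only held 937 to 2491 genes, H3K27me3 only 1649 to 2507, H3K27ac+H3K27me3 5 to 10 and all 3 marks 329 to 824, each extreme farthest from the reported count when replicate 1 was left out. The difference in genes reached between siControl+TGFb and siControl turned over for H3K27me3 with the 50% strongest peaks (0.111) and with lists of equal length (0.716), and ranged from -4.68 to 4.36 percentage points without a library. For H3K4me3 it ranged from -0.0479 to 1.88. H3K27ac minus H3K4me3 peaks near starts turned over with the 50% strongest peaks (-12.0) and ranged from -3.37 to 7.84 without a library. With the TGFb groups exchanged, an alternative chosen after seeing the data, the difference was -0.701 for H3K4me3 and -11.6 for H3K27ac. None of these differences passed a test as reported. Of the counts for gene lists 27 moved by over 1.5 times and 203 did not. The moves came mostly with the 50% strongest peaks (cell cycle genes in H3K4me3+H3K27ac fell to 13, bivalent pancreatic transcription factors to 8), with a window of 5 kb or without replicate 1. Of the calls for named genes 42 changed and 198 did not. CD22 had its state in 5 of 10 settings, and PHGDH, CRYM and ADGRV1 in 7, while KALRN and IQSEC1 lost theirs without replicate 1. With a narrow-peak −log10 q of at least 3, 97.3% of genes had the same state. Depth is unknown, so a missing peak in the shorter list was not told apart from a missing mark.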

Other observations

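H3K27me3 was spread unevenly over the chromosomes of siControl PANC-1. Its peaks covered 6.95% and 19.9% of chromosome 20 (replicates 1 and 2) and 8.17% and 17.3% of chromosome 11, against 3.39% and 9.46% of the genome. Chromosome 13 had 0.530% and 2.90%, and chromosome 4 had 0.662% and 3.24%. H3K4me3 also varied, from 0.465% and 0.626% of chromosome 13 to 3.04% and 3.68% of chromosome 19. The share of genes with H3K27me3 only was 15.2% on chromosome 20, 13.2% on chromosome 11 and 3.13% on chromosome 13. The number of copies of each chromosome in this line and the gene content of the chromosomes were not tested.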
